A study of Mus musculus with 24 samples.

Results

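The lungs of C57BL/6J and BALB/c mice, written C57BL-6J and BALB-c in the labels, were compared with each other 14 d after intratracheal bleomycin, with no saline array in the contrast. The comparison rests on 4 of the 24 arrays of the series, chosen by the strain, treatment and time in their titles. There were 2 arrays of C57BL/6J lung and 2 arrays of BALB/c lung, each after bleomycin at 1.5 U per kg. A further 4 arrays, 2 of C57BL/6J and 2 of BALB/c lung taken 14 d after intratracheal saline, told which differences the strains also showed without the drug. Each array measured total RNA of lung on an Affymetrix mouse array. The arrays of a group are marked a and b, and no label says whether they came from separate animals, or gives sex or age. Every p-value therefore measures only the spread between such arrays, which may be technical. The title of the series names the genetic basis of sensitivity to lung fibrosis, so the question here is how the injured lungs of the strains differed.

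Bleomycin breaks DNA. Given into the airways of mice, it injures the alveolar epithelium, draws in inflammatory cells and is followed by deposition of collagen by fibroblasts. C57BL/6 mice are known to develop such fibrosis readily, whereas BALB/c mice are known to be relatively resistant. The strains also carry different haplotypes of the major histocompatibility complex (MHC) and many other fixed alleles. On short-probe arrays an allele that differs under the probes can read as a lower intensity. In such bulk samples, fewer cells of a type and less RNA per cell cannot be told apart.

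The values were intensities scaled to a common level, with array medians between 313 and 408 over the 24 arrays. The pairs used here agreed less closely than most. The median absolute difference between arrays a and b was 0.29 on the log2 scale for C57BL/6J and 0.285 for BALB/c after bleomycin, the largest of the 12 groups. After saline it was 0.23 for C57BL/6J and 0.13 for BALB/c. Standard errors and p-values use a spread shared over all 12 groups, so they can understate the noise of the bleomycin pairs. The title of C57BL/6J bleomycin array a ends in a letter that the other titles lack, and the labels do not say what it marks. The genes that separate the strains ran against the labels on the 4 saline arrays of 72 h, which enter here only through the shared estimate of spread. Of the 13 lung markers 10 were on the array, with a summed intensity of 74467 and 20631 in C57BL/6J and 15015 and 14349.5 in BALB/c after bleomycin, and 26028 and 13156 in C57BL/6J and 33697 and 32463 in BALB/c after saline. All lay above the filter on some array of 14 d except Sftpd, a surfactant protein.

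After bleomycin, 1364 of 8710 probe sets tested (15.7%) differed between the strains at an adjusted p under 0.05 in limma, 499 higher and 865 lower in C57BL/6J. After saline, 1291 (14.8%) differed, 761 higher and 530 lower. Differences are C57BL/6J minus BALB/c on the log2(intensity + 92) scale, which understates those of dim genes. The strain difference itself changed with treatment, by the interaction of strain and treatment, for 647 probe sets (7.43%), 222 of them with a more positive and 425 with a more negative difference after bleomycin. The median difference of all probe sets was -0.125 on the log2 scale after bleomycin, so small differences are read against that shift. With each array centred on its median the shift was 0.062 and the split turned to 867 higher and 431 lower. Quantile normalization gave 466 higher and 615 lower, with a median of -0.032. For the interaction, centring gave 225 and 215, and after saline it gave 1018 and 422.

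Single arrays decided these counts. Without C57BL/6J bleomycin array a, 177 probe sets were called after bleomycin, and without BALB/c bleomycin array b 362, whereas without C57BL/6J bleomycin array b or BALB/c bleomycin array a 2010 and 1435 were. The count after saline fell to 441, 438 and 427 without C57BL/6J saline array a, BALB/c saline array a and BALB/c saline array b. With the spread taken from the 8 arrays of 14 d alone, 170 probe sets were called after bleomycin and 0 for the interaction by limma, with 1524 at an unadjusted p under 0.05. The genes described below are therefore marked by whether the call held with each single array of the contrast left out, a criterion chosen after the values were seen. With 1 probe set per gene, 99 of 6464 genes (1.53%) held in this way after bleomycin, 176 (2.72%) after saline and 66 (1.02%) for the interaction. Such calls are named held below.

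**Figure D1:**
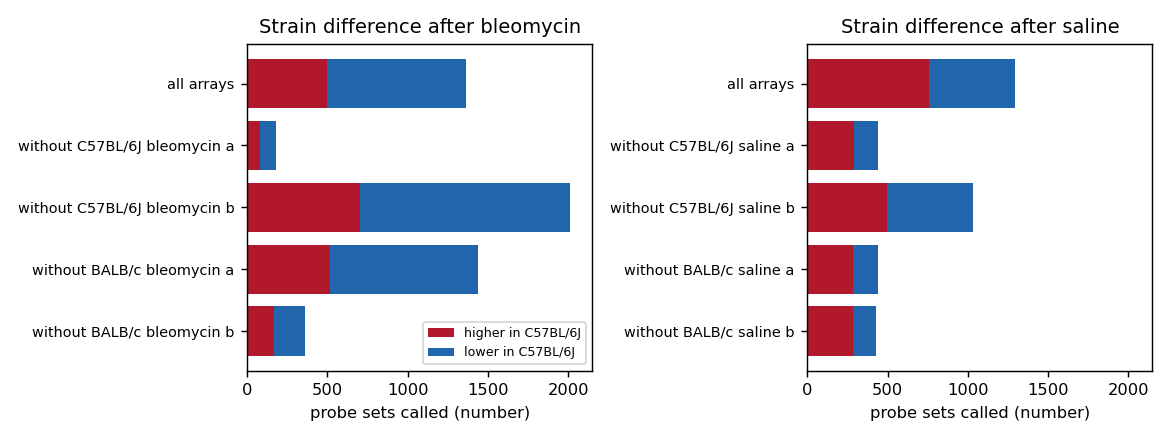
Number of probe sets called between the strains 14 d after bleomycin (left) and after saline (right), with all arrays and with each array of the contrast left out in turn; red is higher and blue lower in C57BL/6J. The count after bleomycin ranged from 177 to 2010.

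At the level of genes, 353 were higher in C57BL/6J after bleomycin (5.46% of those tested) and 673 lower (10.4%). After saline 609 were higher (9.42%) and 350 lower (5.41%), and the interaction was positive for 144 (2.23%) and negative for 359 (5.55%). The 202 genes whose probe sets were very bright are treated apart further down. Among the others, 154 genes were called with the same sign after bleomycin and after saline, 68 higher and 86 lower in C57BL/6J, and 37 of them held after bleomycin. Both calls held for 24 of the 154. The genes of this class named below are marked by the bleomycin contrast, so their saline calls may rest on a single array. A further 165 genes, 47 higher and 118 lower, were called after bleomycin and not after saline with the interaction called, and 33 of these held. For 599 genes, 155 higher and 444 lower, the difference was called after bleomycin and not after saline while the interaction was not called. Whether they differed only after the drug could not be told, and 23 of them held. The sign turned between treatments for 33 genes, of which 1 held. For 763 genes the difference was called after saline alone.

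**Figure D2:**
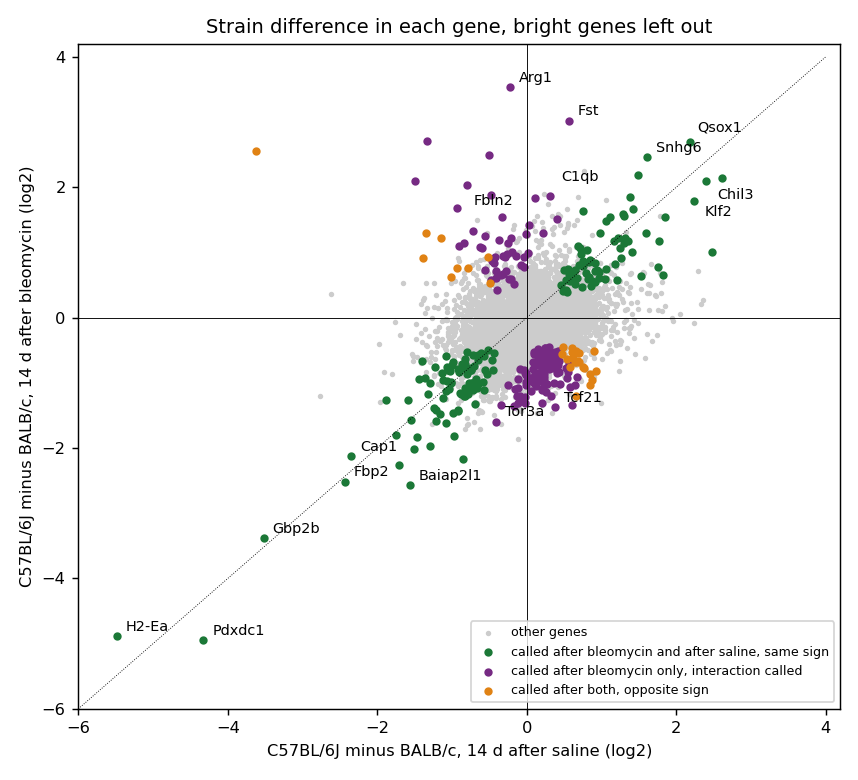
Log2 difference between C57BL/6J and BALB/c 14 d after saline (x axis) and 14 d after bleomycin (y axis), 1 point per gene without the bright genes; the dotted line marks equal differences. H2-Ea, Pdxdc1 and Gbp2b lie far along the line (-4.89, -4.95 and -3.38 after bleomycin), whereas Arg1 (3.53) and Fst (3.02) lie above it near 0 after saline (-0.22 and 0.56). Fst was dim after saline, so its difference there is understated on this scale.

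The saline arrays of 24 h, which share no array with either contrast, gave another look at the strains without the drug. The C57BL/6J pair among them stood apart, with titles that end differently from the rest and highest intensities of 78641 and 43229.9, against at most 21462 on the other 22 arrays. Of the 154 genes called with the same sign after both treatments, 118 (76.6%) had that sign there and 38 (24.7%) were called, among them 25 of the 37 that held. Of the 165 genes with the interaction called, 91 (55.2%) had the same sign and 6 (3.64%) were called. Over all 6262 genes outside the bright set the shares were 56.1% and 1.74%. The number of probe sets called between the strains at the other times was also lower than at 14 d, with 163 at 24 h and 143 at 72 h after bleomycin and 218 at 24 h after saline. The difference between these counts was not tested.

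The largest differences that were present with and without the drug were genes low in C57BL/6J. H2-Ea, which encodes the alpha chain of the MHC class II molecule I-E and is known to be silent in C57BL/6 mice, read 29.2 and 166 in C57BL/6J and 6068 and 4347 in BALB/c after bleomycin, and 25.6 and 57.6 in C57BL/6J and 5854 and 5840.4 in BALB/c after saline. The log2 difference was -4.89 ± 0.28 (SE, adjusted p = 1.35e-08) after bleomycin and -5.49 after saline, and the groups stood far apart under both treatments. Gbp2b, an interferon-induced guanylate-binding protein, read 7.3 and 8.13 in C57BL/6J and 742 and 1199 in BALB/c after bleomycin, and 11.7 and 12.6 in C57BL/6J and 1013 and 1201 in BALB/c after saline, near the dark end of the scale on every C57BL/6J array, where the size depends on the offset (-3.38 ± 0.23, adjusted p = 5.62e-08). For Pdxdc1, which encodes a decarboxylase-like protein, the brightest probe set gave -4.95 ± 0.30 after bleomycin and -4.33 after saline, with 40.9 and 126 in C57BL/6J and 5092 and 5244 in BALB/c after bleomycin. The other probe sets of Pdxdc1 ran the opposite way, at 1.89 and 1.46 after bleomycin and 2.57 and 1.23 after saline, so no direction for the gene as a whole is given.

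Further genes of varied function were lower in C57BL/6J under both treatments. Fbp2, the muscle form of fructose bisphosphatase, read 19.9 and 93.9 in C57BL/6J and 923 and 576 in BALB/c after bleomycin, and 19.5 and 39.8 in C57BL/6J and 529.5 and 601 in BALB/c after saline, without overlap between strains (-2.51 ± 0.27 after bleomycin, adjusted p = 1.81e-05; -2.44 after saline). Its C57BL/6J readings lay below the filter of 225.7 and mostly below the 92 added before the logarithm, so the size depends on that offset, at -3.02 with a smaller offset and -1.61 with one 3 times as large. Gatm, which makes the precursor of creatine, differed by -1.80 ± 0.24 after bleomycin and -1.76 after saline, and Alad, an enzyme of haem synthesis, by -1.82 ± 0.18 and -0.98. Glo1, which detoxifies methylglyoxal, differed by -1.10 and -1.05. Serpina1b and Serpina1e, members of the alpha-1 antitrypsin family that inhibit elastase, differed by -2.26 ± 0.36 and -1.61 ± 0.21 after bleomycin and by -1.71 and -1.07 after saline. Their sequences are closely alike, so probes can read both. Baiap2l1 and Cap1, both regulators of actin, differed by -2.57 ± 0.25 and -2.12 ± 0.18 after bleomycin and -1.56 and -2.35 after saline. All of these calls held without any 1 array of the bleomycin contrast. Smarca2, a chromatin remodelling ATPase (-2.17 ± 0.28, -0.86 after saline), held after bleomycin too. Gpcpd1, a glycerophosphocholine phosphodiesterase, was called at -2.01 ± 0.43, but its adjusted p was 0.104 without C57BL/6J bleomycin array a.

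Other genes were higher in C57BL/6J with and without the drug. Chil3, the chitinase-like protein Ym1 secreted by macrophages, read 15559.6 and 8905 in C57BL/6J and 2608 and 2759.6 in BALB/c after bleomycin, and 9606 and 7458 in C57BL/6J and 1687 and 1375 in BALB/c after saline. It stood higher in C57BL/6J under both treatments without overlap, by 2.10 ± 0.26 (SE, adjusted p = 9.51e-05) after bleomycin and 2.41 after saline. Marco, a scavenger receptor of alveolar macrophages, read 570.0 and 676 in C57BL/6J and 25 and 119 in BALB/c after bleomycin, and 244 and 199 in C57BL/6J and 22.6 and 16.2 in BALB/c after saline (2.18 ± 0.36, adjusted p = 0.00141 after bleomycin; 1.49 after saline). Its readings in BALB/c were at the dark end of the scale on all but BALB/c bleomycin array b. Qsox1, a sulfhydryl oxidase of secreted proteins, gave the largest such difference, 2.69 ± 0.22, with 3037 and 3266 in C57BL/6J and 349.9 and 475 in BALB/c after bleomycin, and 2.18 after saline. A dimmer probe set of Qsox1 gave 0.99 and 0.50.

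Snhg6 and Gas5, both hosts of small nucleolar RNAs, were higher by 2.47 ± 0.20 and 0.82 ± 0.15 after bleomycin and 1.61 and 1.18 after saline. Klf2, a transcription factor of resting endothelium and lymphocytes, read 624 and 439 in C57BL/6J and 111 and 65.1 in BALB/c after bleomycin, and 816 and 1047 in C57BL/6J and 89.8 and 165 in BALB/c after saline, with no overlap between strains (1.79 ± 0.28 and 2.23). Cxcl14, a chemokine of epithelia, was higher by 1.55 ± 0.23 and 1.85, Slc15a2, a peptide transporter, by 1.57 ± 0.21 and 1.30, and Sphk1, which makes sphingosine 1-phosphate, by 1.18 ± 0.21 and 1.36. Npc1, which exports cholesterol from lysosomes, was higher by 0.87 and 0.76. Pttg1, the securin that restrains the separation of sister chromatids, narrowed its difference, at 1.01 ± 0.21 after bleomycin against 2.49 after saline, with an interaction of -1.48 ± 0.30 (adjusted p = 0.0107). Slc9a3r1, a scaffold under the apical membrane, was higher by 1.63 after bleomycin and 0.75 after saline, with an interaction of 0.88 (adjusted p = 0.0464). Each of these held after bleomycin. The interactions of Pttg1 and Slc9a3r1 did not hold, with adjusted p = 0.0615 without BALB/c saline array b and 0.175 without BALB/c saline array b. Fkbp5, a chaperone induced by glucocorticoids (1.86), Sfn, an epithelial 14-3-3 protein (1.67), and Camk2b, a calcium-dependent kinase (1.59), were called in both contrasts but reached adjusted p of 0.075, 0.0614 and 0.0859 without C57BL/6J bleomycin array a.

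**Figure D3:**
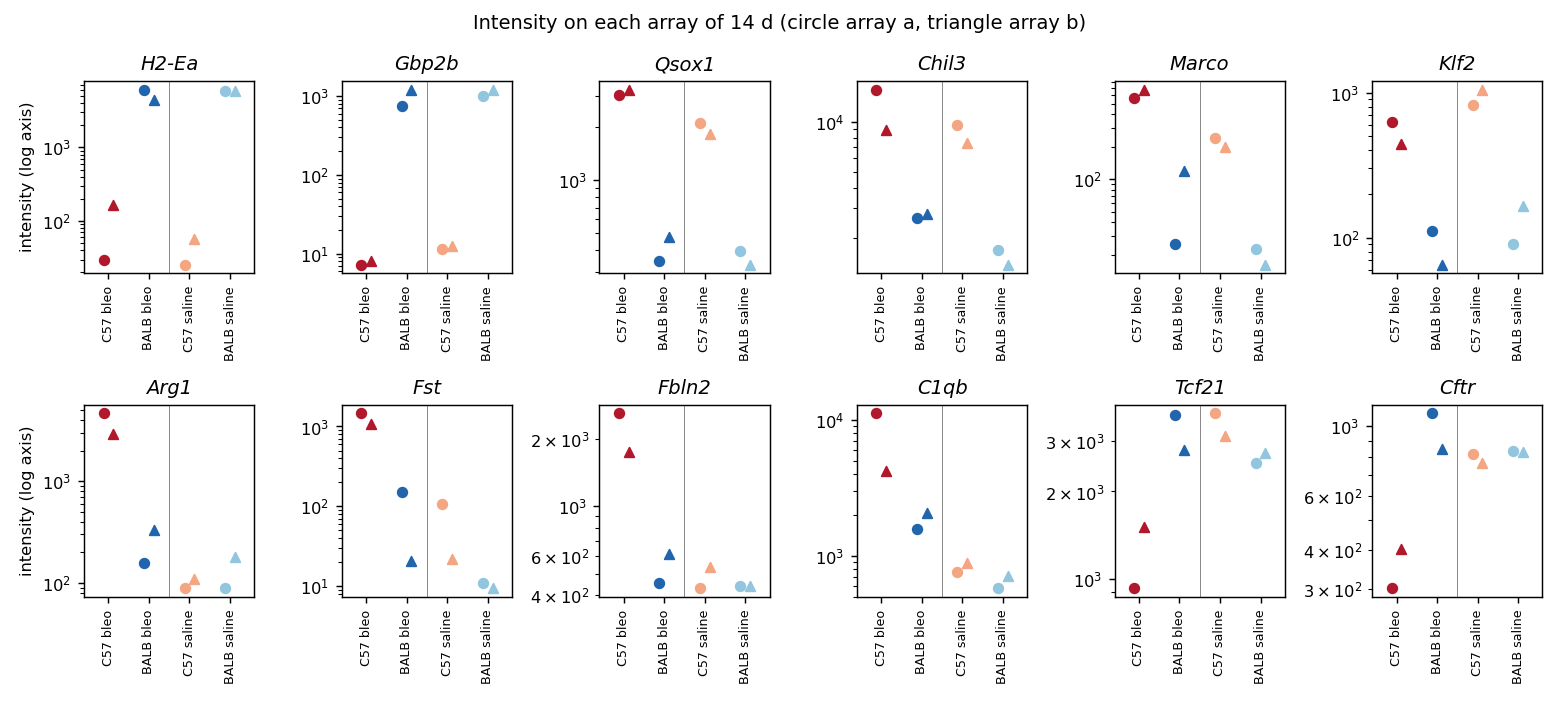
Intensity (log axis) on each of the 8 arrays of 14 d for 12 genes, with C57BL/6J and BALB/c after bleomycin left of the grey line and after saline right of it; circles are array a and triangles array b. In the upper row the strains stand apart under both treatments, and in the lower row they stand apart after bleomycin, as for Arg1 at 4652 and 2903 in C57BL/6J and 157 and 333 in BALB/c. Some genes of the lower row, Fst and C1qb among them, also do not overlap between strains after saline.

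Among genes outside the bright set with no call after saline, the difference after bleomycin was largest for Arg1, which encodes arginase 1, an enzyme that turns arginine into ornithine and marks type 2 activation of macrophages. It read 4652 and 2903 in C57BL/6J and 157 and 333 in BALB/c after bleomycin, and 88.4 and 110.3 in C57BL/6J and 90.1 and 181 in BALB/c after saline. Both C57BL/6J bleomycin arrays stood far above the other 6, which overlapped. The log2 difference was 3.53 ± 0.40 (SE, adjusted p = 3.16e-05) after bleomycin and -0.22 ± 0.40 (adjusted p = 0.745) after saline, with an interaction of 3.76 ± 0.57 (adjusted p = 0.00244). Bleomycin against saline gave 4.30 ± 0.40 in C57BL/6J and 0.55 ± 0.40 in BALB/c (adjusted p = 1.89e-05 and 0.393). On the separate bleomycin arrays of 72 h it read 1168 and 1619 in C57BL/6J and 74.7 and 112 in BALB/c, a difference of 2.99 ± 0.40 (adjusted p = 0.000241). At 24 h the difference was 1.21 ± 0.40 (adjusted p = 0.189).

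Fst encodes follistatin, a secreted protein that binds activins of the TGF-beta family. It read 1453 and 1072 in C57BL/6J and 149.8 and 20.9 in BALB/c after bleomycin, and 108 and 22.1 in C57BL/6J and 11 and 9.45 in BALB/c after saline. Both C57BL/6J bleomycin arrays stood far above the other 6, and the saline arrays and BALB/c bleomycin array b were at the dark end of the scale. The difference was 3.02 ± 0.34 (adjusted p = 2.92e-05) after bleomycin and 0.56 ± 0.34 after saline, with an interaction of 2.46 ± 0.48 (adjusted p = 0.00851). At 72 h after bleomycin it was 1.70 ± 0.34 (adjusted p = 0.0119), with 366 and 208 in C57BL/6J and 24.2 and 19.8 in BALB/c. Fbln2, which encodes the matrix glycoprotein fibulin 2, read 2591 and 1739.6 in C57BL/6J and 452 and 609.5 in BALB/c after bleomycin, and 429 and 536 in C57BL/6J and 439 and 440.5 in BALB/c after saline. The C57BL/6J bleomycin arrays stood above the other 6 without overlap (1.84 ± 0.20, adjusted p = 1.7e-05; interaction 1.74 ± 0.28, adjusted p = 0.00315). At 72 h the difference of Fbln2 was 0.21 ± 0.20 (adjusted p = 0.808). The calls of Arg1, Fst and Fbln2 after bleomycin and their interactions held without any 1 array.

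C1qb and C1qc, which encode chains of complement C1q and are made in tissue mainly by macrophages, moved in the same direction. C1qb read 11211 and 4216 in C57BL/6J and 1582 and 2068 in BALB/c after bleomycin, and 759 and 883 in C57BL/6J and 577 and 713 in BALB/c after saline (1.88 ± 0.33, adjusted p = 0.00202 after bleomycin; interaction 1.56 ± 0.47, adjusted p = 0.04998). C1qc read 14345 and 5887 in C57BL/6J and 3098 and 2999 in BALB/c after bleomycin, and 1842 and 1950.3 in C57BL/6J and 1197 and 1565 in BALB/c after saline (1.56 ± 0.26, adjusted p = 0.00155), and its interaction was not called (1.12 ± 0.37, adjusted p = 0.0746). In both genes the bleomycin arrays of each strain stood above the saline arrays, and those of C57BL/6J stood above those of BALB/c. The interaction of C1qb did not hold, with adjusted p = 0.193 without C57BL/6J bleomycin array a. A dim probe set of C1qb gave -0.29 (adjusted p = 0.451). C1qa, the remaining chain, differed by 0.82 ± 0.27 (adjusted p = 0.0445), a call lost without C57BL/6J bleomycin array a (adjusted p = 0.494).

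The promoters of macrophage genes that were higher in C57BL/6J after bleomycin were read from RefSeq on build GRCm38.p6, which is of strain C57BL/6J. Chil3 and Marco among them were already higher after saline. The 9 genes of the macrophage list that were called after bleomycin and Chil3 were searched for AGGAAGT and its reverse complement ACTTCCT, the core bound by the macrophage factor PU.1, a motif chosen after the values were seen. Of these 10 genes 9 were in the table, and 4 held the motif within the 300 bases around a start site, namely C1qb, C1qc, Chil3 and Ctss. It was held by 9.35% of all 32851 promoters of that length. The macrophage genes that were not called were not searched, so the count beside this share is no test of enrichment. A match is a description and not a binding site. The promoters of C1qb, C1qc and Chil3, with the motif in capitals, and of Marco, which had no match, read as follows.
C1qb (chr4:136886151-136886450, minus strand): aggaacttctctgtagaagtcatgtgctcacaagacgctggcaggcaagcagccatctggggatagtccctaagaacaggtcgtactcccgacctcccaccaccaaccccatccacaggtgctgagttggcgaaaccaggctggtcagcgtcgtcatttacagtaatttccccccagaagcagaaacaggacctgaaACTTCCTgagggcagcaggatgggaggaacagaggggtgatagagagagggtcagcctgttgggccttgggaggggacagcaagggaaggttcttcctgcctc
C1qc (chr4:136892865-136893164, minus strand): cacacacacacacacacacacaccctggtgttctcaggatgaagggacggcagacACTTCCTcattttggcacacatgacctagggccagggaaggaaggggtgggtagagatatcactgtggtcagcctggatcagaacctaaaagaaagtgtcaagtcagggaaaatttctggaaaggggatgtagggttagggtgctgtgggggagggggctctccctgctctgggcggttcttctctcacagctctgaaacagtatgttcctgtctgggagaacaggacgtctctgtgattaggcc
Chil3 (chr3:106167515-106167814, minus strand): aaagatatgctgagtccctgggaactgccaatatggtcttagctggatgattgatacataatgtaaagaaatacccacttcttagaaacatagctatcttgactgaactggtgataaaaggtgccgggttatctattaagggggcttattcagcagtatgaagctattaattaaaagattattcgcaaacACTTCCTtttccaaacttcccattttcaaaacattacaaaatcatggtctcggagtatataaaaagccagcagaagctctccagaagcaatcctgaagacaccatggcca
Marco (chr1:120504975-120505274, minus strand): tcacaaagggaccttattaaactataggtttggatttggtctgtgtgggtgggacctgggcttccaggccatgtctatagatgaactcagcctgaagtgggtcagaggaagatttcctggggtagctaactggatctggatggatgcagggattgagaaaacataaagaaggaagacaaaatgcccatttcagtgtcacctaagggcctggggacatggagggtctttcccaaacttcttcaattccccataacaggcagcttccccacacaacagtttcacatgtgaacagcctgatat

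Other genes higher after bleomycin, with the interaction called, came from several functions. Peg3, an imprinted zinc finger gene, read 2054 and 1749.8 in C57BL/6J and 615 and 589.7 in BALB/c after bleomycin, and 807 and 910.5 in C57BL/6J and 629 and 618 in BALB/c after saline (1.52 ± 0.15, adjusted p = 6.37e-06; interaction 1.11). Of its other probe sets, 1 gave 1.51 and 1 gave -0.04. Ackr3, a scavenging receptor of the chemokine CXCL12, was higher by 1.43 ± 0.25 and also at 72 h (1.14, adjusted p = 0.0236). Nt5e, the ectoenzyme CD73 that makes adenosine, was higher by 1.01 ± 0.19, and Septin9, a cytoskeletal GTPase, by 0.93 ± 0.14. Septin9 read 3319 and 3074 in C57BL/6J and 1818 and 1456 in BALB/c after bleomycin, and 2233 and 1800.4 in C57BL/6J and 2356 and 2577 in BALB/c after saline, and bleomycin against saline gave 0.65 in C57BL/6J and -0.57 in BALB/c. Peg3 and Septin9 held in both tests. For Ackr3 and Nt5e the difference held and the interaction did not (adjusted p up to 0.12 and 0.0678).

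Some of the largest calls in this class shared a pattern across arrays. H2-Bl, an MHC class I gene, read 2566 and 3776 in C57BL/6J and 962 and 483 in BALB/c after bleomycin, and 2635 and 1629 in C57BL/6J and 3643 and 3677 in BALB/c after saline, and was low on the BALB/c bleomycin arrays and on C57BL/6J saline array b. Class I genes are closely alike, so the probe set can read several of them. Gss, which encodes glutathione synthetase, read 967 and 1293 in C57BL/6J and 232 and 240.5 in BALB/c after bleomycin, and 1141 and 252 in C57BL/6J and 806 and 829.9 in BALB/c after saline, and a dimmer probe set of it gave 0.10 (adjusted p = 0.867). P4hb, the protein disulfide isomerase that is also a subunit of prolyl hydroxylase, read 2474 and 2261 in C57BL/6J and 374 and 311 in BALB/c after bleomycin, and 1812 and 592 in C57BL/6J and 1533 and 1532 in BALB/c after saline. A dim probe set of P4hb gave 0.80. Zfp94, a zinc finger gene, read 3843 and 3524 in C57BL/6J and 481 and 489 in BALB/c after bleomycin, and 4042 and 668 in C57BL/6J and 4736 and 4078 in BALB/c after saline. In all of these the readings were low on both BALB/c bleomycin arrays and lower on C57BL/6J saline array b than on array a, as were the medians of the bright probe sets. Unlike those medians, H2-Bl and Gss read higher on C57BL/6J bleomycin array b than on array a. The part of the shared low readings in their differences (2.04, 1.88, 2.50 and 2.71) was not tested. The calls of P4hb and Zfp94 were lost without C57BL/6J bleomycin array a (adjusted p = 0.0692 and 0.0685). Rpl37a, a ribosomal protein (2.10), and Traf2, an adaptor of TNF receptors (1.90), were lost without the same array, at adjusted p = 0.393 and 0.276.

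Several genes were lower in C57BL/6J after bleomycin, with no call after saline and the interaction called. Tcf21, a transcription factor of lung fibroblasts, read 926 and 1508 in C57BL/6J and 3686 and 2787 in BALB/c after bleomycin, and 3719.6 and 3121 in C57BL/6J and 2509.8 and 2706 in BALB/c after saline. Both C57BL/6J bleomycin arrays lay below the other 6 (-1.37 ± 0.23, adjusted p = 0.0016; interaction -1.75 ± 0.33, adjusted p = 0.007). Car4, a carbonic anhydrase on the surface of lung capillary endothelium, read 1669 and 1682 in C57BL/6J and 3933 and 4705 in BALB/c after bleomycin, and 3100.3 and 4356 in C57BL/6J and 3531 and 3972 in BALB/c after saline (-1.31 ± 0.16, adjusted p = 8.08e-05; -0.03 after saline). Cftr, the epithelial chloride channel mutated in cystic fibrosis, read 302 and 404 in C57BL/6J and 1101 and 848 in BALB/c after bleomycin, and 818 and 763 in C57BL/6J and 836 and 825 in BALB/c after saline (-1.26 ± 0.15, adjusted p = 5.59e-05; -0.06 after saline). A dimmer probe set of Car4 gave -0.60 after bleomycin. In each gene both C57BL/6J bleomycin arrays were the lowest of the 8, and difference and interaction held. Cftr was lower in C57BL/6J on the other bleomycin arrays as well, with differences of -0.92 ± 0.15 at 24 h and -0.70 ± 0.15 at 72 h (adjusted p = 0.00198 and 0.0197).

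Sox2, a transcription factor of airway epithelium, read 588 and 874 in C57BL/6J and 1727 and 2229 in BALB/c after bleomycin, and 1227 and 1646 in C57BL/6J and 1903 and 1742 in BALB/c after saline (-1.34 ± 0.21, adjusted p = 0.000739). Nnt, the mitochondrial transhydrogenase, carries a deletion in C57BL/6J that is known to remove part of the gene. It differed by -1.0 ± 0.18 (adjusted p = 0.00226) after bleomycin and 0.09 after saline, and whether its probes lie in the deleted part is not known here. Tor3a, an ATPase of the endoplasmic reticulum, differed by -1.60 ± 0.17, against -0.42 after saline. Each of these calls held, and the interactions of Sox2, Nnt and Tor3a did not (adjusted p up to 0.176, 0.084 and 0.0568). Among the genes outside the bright set that were called after bleomycin and not after saline with the interaction called, the 47 that were higher in C57BL/6J comprised 21 called higher with bleomycin than saline in C57BL/6J and 24 called lower in BALB/c. Of all 2266 genes outside the bright set with a positive difference, called or not, 186 were called higher in C57BL/6J and 165 lower in BALB/c. Of the 118 lower, 59 were called lower with bleomycin in C57BL/6J and 27 higher in BALB/c, against 273 and 351 of all 3996 genes with a negative difference. These counts share arrays with the interaction and are given as a description.

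The bleomycin arrays of 24 h and 72 h share no array with the 14 d contrast. Of the 33 held genes with the interaction called, 25 (75.8%) had the same sign of strain difference at 24 h and 31 (93.9%) at 72 h, and 3 and 7 were called with it. Over all 165 genes of that class, held or not, the counts were 104 (63.0%) and 122 (73.9%), with 4 and 8 called. Of the 37 held genes that already differed after saline, 36 and 35 had the same sign at 24 h and 72 h, and 23 and 22 were called, against 134 and 125 with the same sign and 36 and 31 called of all 154. Over all 6262 genes outside the bright set, 61% and 57.4% shared the sign, and 1.42% and 1.47% were called with it.

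Among genes called after bleomycin alone whose interaction was not called, Apoc2, an apolipoprotein that activates lipoprotein lipase, had the largest positive difference. It read 779.5 and 492 in C57BL/6J and 58 and 59 in BALB/c after bleomycin, and 176 and 161 in C57BL/6J and 56.4 and 66.7 in BALB/c after saline (2.24 ± 0.31, adjusted p = 0.000274; interaction adjusted p = 0.0502). Il3ra, a subunit of the interleukin 3 receptor, was higher by 1.68 ± 0.32, Tmed9, a cargo receptor of the secretory pathway, by 1.85 ± 0.35, and Asah1, the lysosomal acid ceramidase, by 1.10 ± 0.20. Lower were Ifi202b, an interferon-induced DNA-binding protein that read 7.9 and 4.13 in C57BL/6J and 154 and 324 in BALB/c after bleomycin, and 6.15 and 12.6 in C57BL/6J and 82.1 and 48.5 in BALB/c after saline (-1.71 ± 0.29), Hnrnpc, an RNA-binding protein (-1.71 ± 0.30), Cd1d2, a lipid antigen-presenting molecule (-1.65 ± 0.31), and Epcam, an epithelial adhesion protein (-1.25 ± 0.22). All of these held. Fcer2a, the low-affinity IgE receptor of B cells (-1.86), and Dnajb9, a chaperone of the endoplasmic reticulum (-1.64), were lost without C57BL/6J bleomycin array a (adjusted p = 0.122 and 0.246). Csk, the kinase that restrains Src family kinases, was the 1 gene whose sign turned and whose call held after bleomycin. It read 1075 and 1047 in C57BL/6J and 542 and 479.7 in BALB/c after bleomycin, and 741 and 614 in C57BL/6J and 909.9 and 1119 in BALB/c after saline, higher in C57BL/6J by 0.94 ± 0.17 after bleomycin and with a difference of -0.52 after saline, with an interaction of 1.46 ± 0.24 (adjusted p = 0.00315). The saline difference of Csk did not hold (adjusted p up to 0.286).

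Groups of genes with known roles were then counted, against a share of 5.46% higher and 10.4% lower and a median of -0.12 over all genes after bleomycin. Of 25 macrophage genes tested, 9 were higher in C57BL/6J and 0 lower, with a median of 0.57 against 0.09 after saline, where 2 were higher. Besides Marco, C1qa, C1qb and C1qc these were Apoe, an apolipoprotein of the bright set (2.10), Itgam, the CD11b integrin (1.49), Mpeg1, the pore-forming perforin-2 (1.48), Fcgr2b, the inhibitory receptor for immunoglobulin G (1.33), and Ctss, a lysosomal protease (1.01). With any 1 array left out 3 of the 9 held, namely Marco, C1qb and C1qc. The general macrophage markers Cd68 (0.61, adjusted p = 0.133), Lyz2 (0.49, adjusted p = 0.12) and Adgre1 (0.39, adjusted p = 0.518) were not called. The median stayed positive under quantile normalization (0.54) and median centring (0.75), and was 0.22 without C57BL/6J bleomycin array a, where 3 genes were called, against 4 without BALB/c bleomycin array b. The summed intensity of the 5 macrophage markers was 32094 and 22113 in C57BL/6J and 14489 and 10996 in BALB/c after bleomycin, and 21493 and 17287 in C57BL/6J and 15201 and 14117 in BALB/c after saline. Chil3, already higher in C57BL/6J after saline, is among these markers and makes up a large part of the C57BL/6J sums. The order of the sums therefore cannot be read as the number of macrophages under either treatment.

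In the list of type 2 activation, 6 of 13 genes were higher and 1 lower, with a median of 0.38. Besides Arg1 and Chil3, which held, they were Timp1 and Ccl17, a chemokine for type 2 helper T cells (1.36). The others were Serpina3n, an acute phase protease inhibitor (1.49), and Clca3a1, a channel regulator (1.0). Chil1, the chitinase-like protein BRP-39, belonged to the bright set and was lower (-1.92). Of 16 matrix proteases and inhibitors 6 were higher and 0 lower, with a median of 0.83 against -0.14 after saline. They were the lysosomal cathepsins Ctsd (2.89, in the bright set), Ctss, Ctsb (0.76) and Ctsl (0.66) and the inhibitors Timp1 and Timp2 (0.77). None of these held, with 0 called by limma without C57BL/6J bleomycin array a and 0 without BALB/c bleomycin array b. Mmp12, the macrophage elastase, read 13439.5 and 7364 in C57BL/6J and 5586 and 4423 in BALB/c after bleomycin, and 1387 and 1057 in C57BL/6J and 1888 and 1399 in BALB/c after saline and was not called between strains (0.99 ± 0.40, adjusted p = 0.1).

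None of the called collagen genes held. Of 15 genes of fibrillar collagens and the enzymes that modify them, 7 were higher and 1 lower after bleomycin with a median of 0.40, and 4 were higher after saline with a median of 0.46. Without C57BL/6J bleomycin array a 0 of them were called, and without BALB/c bleomycin array b 1. Col1a1, which encodes the main chain of type I collagen, read 15562 and 6859 in C57BL/6J and 6556 and 3618 in BALB/c after bleomycin, and 6821 and 7107 in C57BL/6J and 2668 and 3090.3 in BALB/c after saline, a difference of 1.07 ± 0.29 (adjusted p = 0.0194) after bleomycin and 1.25 ± 0.29 after saline. Another probe set of Col1a1 gave 0.29 after bleomycin and -0.18 after saline, neither called. Col1a2, its partner chain, differed by 1.06 ± 0.19 after bleomycin (adjusted p = 0.00262, and 0.066 without C57BL/6J bleomycin array a). Col3a1, the type III chain, was not called (0.42 ± 0.25, adjusted p = 0.268), and its dimmer probe sets gave 0.23 and -0.49. Fn1, which encodes fibronectin, read 1914 and 834 in C57BL/6J and 969 and 249 in BALB/c after bleomycin, and 1428 and 1396 in C57BL/6J and 1455 and 1672 in BALB/c after saline (1.18 ± 0.37, adjusted p = 0.0388, and 0.494 without BALB/c bleomycin array b). Timp1, an inhibitor of matrix proteases, read 13520.0 and 4599.9 in C57BL/6J and 3608 and 2523 in BALB/c after bleomycin, and 2330.5 and 2897 in C57BL/6J and 3058 and 2856 in BALB/c after saline (1.36 ± 0.44, adjusted p = 0.0448, and 0.534 without C57BL/6J bleomycin array a).

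Tgfb1, the profibrotic cytokine, was not called after bleomycin (0.52 ± 0.32, adjusted p = 0.281) and was higher in C57BL/6J after saline (1.63 ± 0.32, adjusted p = 0.00337). Its values were 3115 and 1266 in C57BL/6J and 1293 and 1431 in BALB/c after bleomycin, and 2089.7 and 1485 in C57BL/6J and 444 and 579 in BALB/c after saline. Cdkn1a, the p21 inhibitor of the cell cycle, was higher by 0.92 ± 0.27 after bleomycin and 1.26 ± 0.27 after saline, and the first call was lost without C57BL/6J bleomycin array a (adjusted p = 0.373). A dimmer probe set of Cdkn1a gave 0.60 after bleomycin. Acta2, the actin of smooth muscle and myofibroblasts (0.47 ± 0.28, adjusted p = 0.28), and Blmh, the hydrolase that inactivates bleomycin (0.27 ± 0.15, adjusted p = 0.245), were not called.

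Among the lists with lower calls and no higher ones were B and plasma cells, the interferon response and muscle. Of 18 genes of B and plasma cells 6 were lower and 0 higher after bleomycin, with a median of -0.63 against -0.11 after saline. They were Fcer2a, the receptor components Cd79b (-1.20) and Cd22 (-1.08), the surface protein Ms4a1 (-0.96), the kinase Blk (-0.84) and Jchain (-0.99), the joining chain of secreted immunoglobulin, which was also lower after saline (-1.01). None of the 6 held, with 0 called by limma without C57BL/6J bleomycin array a and 1 without BALB/c bleomycin array b. Of 14 genes of T and NK cells 0 were called after bleomycin by limma, 5 had an unadjusted p under 0.05 and the median was -0.47. In the interferon list 8 of 30 were lower and 0 higher with a median of -0.22 (-0.04 with centring), and Gbp2b and Ifi202b held. Irgm1, a GTPase of host defence (-1.14), and Mx2, an antiviral GTPase (-0.88), were among the rest.

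Of 29 genes of heart and skeletal muscle 9 were lower and 0 higher after bleomycin, with a median of -0.55 against -0.21 after saline, where 2 were lower. Without C57BL/6J bleomycin array a 2 were lower, and without BALB/c bleomycin array b 3. Myh6, the alpha heavy chain of heart myosin, read 766 and 921 in C57BL/6J and 2024 and 2584 in BALB/c after bleomycin, and 1934 and 1852 in C57BL/6J and 2145 and 2142 in BALB/c after saline. Myh7, the beta heavy chain, read 961 and 1068 in C57BL/6J and 3036 and 2754 in BALB/c after bleomycin, and 2109 and 1527 in C57BL/6J and 2706 and 2902 in BALB/c after saline. In both genes the C57BL/6J bleomycin arrays were the lowest of the 8. They differed by -1.35 ± 0.21 and -1.43 ± 0.24 after bleomycin (adjusted p = 0.000731 and 0.00141), both calls held, and after saline at 14 d the differences were -0.17 and -0.62. Myh6 and Myh7 were also lower in C57BL/6J on the saline arrays of 24 h (-0.92 and -1.12, adjusted p = 0.0221 and 0.015) and on the bleomycin arrays of 72 h (-1.47 and -1.55). The summed intensity of the 9 measured muscle markers was 7741 and 10778 in C57BL/6J and 15936 and 16529.6 in BALB/c after bleomycin, and 17860.4 and 16549.5 in C57BL/6J and 18400.1 and 18261 in BALB/c after saline. The part of such tissue in other differences was not tested.

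Of 32 endothelial genes 6 were lower and 2 higher after bleomycin, and 4 were lower and 5 higher after saline. The lower ones included Car4, the angiopoietin receptor Tek (-0.86) and Vcam1, an adhesion molecule for leukocytes (-0.75), and the higher ones Eng, a TGF-beta co-receptor of the bright set (1.32), and Vwf, von Willebrand factor (0.92). Car4 alone held. In the list of the unfolded protein response 5 of 28 were lower after bleomycin and 0 higher, whereas 7 were higher and 2 lower after saline. Sterol and fatty acid synthesis had 5 of 20 lower and 0 higher, and the cell cycle 5 of 46 lower and 1 higher, near the share of all genes. None of the calls in these 3 lists held, and without C57BL/6J bleomycin array a 0 were called lower in each by limma. At an unadjusted p under 0.05 8, 11 and 12 differed with all arrays. The medians of these 3 lists were -0.22, -0.20 and -0.29, and with centring they were -0.03, -0.02 and -0.11. Of the neutrophil markers the summed intensity was 11067 and 6455 in C57BL/6J and 7003 and 8154 in BALB/c after bleomycin, which overlapped, and 3709.8 and 4439.5 in C57BL/6J and 4748 and 4537 in BALB/c after saline.

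**Figure D4:**
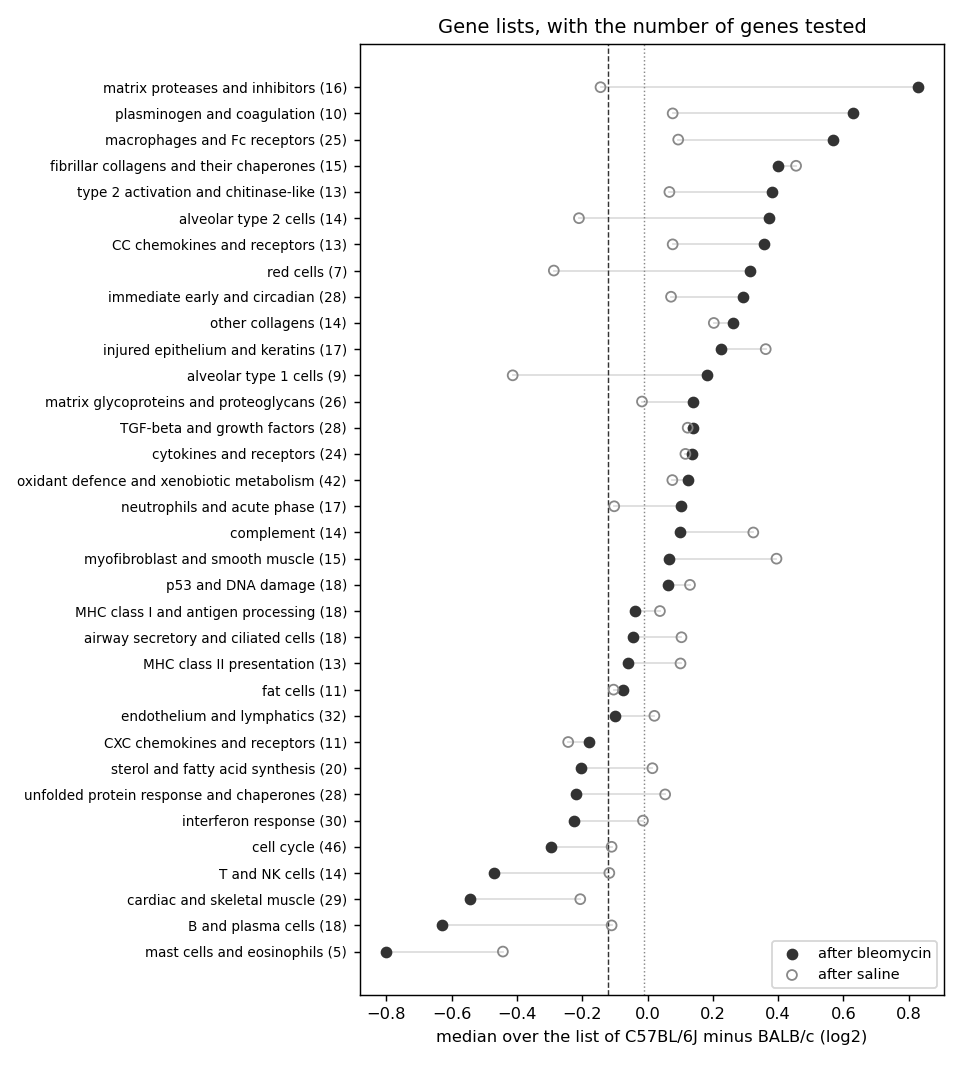
Median log2 difference between C57BL/6J and BALB/c over each of the 34 gene lists, after bleomycin (filled) and after saline (open), with the number of genes tested in brackets; the dashed and dotted lines mark the median of all genes after bleomycin (-0.12) and after saline (-0.01). Matrix proteases (0.83), plasminogen and coagulation (0.63) and macrophages (0.57) lie furthest to the right after bleomycin, and mast cells and eosinophils (-0.80, 5 genes), B and plasma cells (-0.63) and muscle (-0.55) furthest to the left.

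The very bright probe sets were counted apart from the rest. There were 282 of them, with a mean on the C57BL/6J saline arrays of 24 h above 6888, the highest value that BALB/c bleomycin array b reached. The rule uses C57BL/6J arrays and the highest value of an array of this contrast, so a higher reading in C57BL/6J is partly built in. After bleomycin 112 were called (39.7%), 111 of them higher in C57BL/6J, with a median of 0.82, against 14.9% and -0.14 outside the bright set. After saline 12 were called, with a median of -0.26. The call count was 5 without C57BL/6J bleomycin array a and 6 without BALB/c bleomycin array b. Their median intensity was 9964 and 6492 in C57BL/6J and 5918 and 3714 in BALB/c after bleomycin, and 7760.1 and 5619.7 in C57BL/6J and 7510.2 and 7241 in BALB/c after saline.

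Some control probe sets showed the same order of arrays. The beta-actin probe set from the middle of the transcript read 12296 and 1414 in C57BL/6J and 1176 and 448 in BALB/c after bleomycin, and 5974 and 2114 in C57BL/6J and 9150.0 and 8804 in BALB/c after saline. The middle Gapdh probe set read 14167 and 8136 in C57BL/6J and 6611 and 5025 in BALB/c after bleomycin, and 8218 and 7285 in C57BL/6J and 5997 and 6273 in BALB/c after saline. Both BALB/c bleomycin arrays lay below both C57BL/6J bleomycin arrays in each. The 5′ beta-actin probe set overlapped between strains after bleomycin, with 12608 and 2979.7 in C57BL/6J and 2758 and 3372 in BALB/c. The 3′ beta-actin probe set read 7854.7 and 669.3 in C57BL/6J and 295.2 and 445.8 in BALB/c after bleomycin. After saline it read 474.5 and 211.6 in C57BL/6J and 493.3 and 289.7 in BALB/c, so C57BL/6J bleomycin array a stood far above the rest. A 3′ probe set for Cre, a control transcript of phage origin, read 12742 and 7477 in C57BL/6J and 5036 and 4629 in BALB/c after bleomycin, and 8319 and 6024 in C57BL/6J and 10637 and 10721 in BALB/c after saline. The 5′ Cre probe set overlapped between strains after bleomycin, with 7339 and 8182 in C57BL/6J and 7898 and 6259 in BALB/c. Eef1a1, an elongation factor of protein synthesis in all cells, read 11288 and 4265 in C57BL/6J and 3841 and 111 in BALB/c after bleomycin, and 6519 and 3399.8 in C57BL/6J and 7235 and 6010.1 in BALB/c after saline. Tpt1, another abundant gene, read 19576 and 7676 in C57BL/6J and 4631 and 355 in BALB/c after bleomycin, and 11716 and 4705 in C57BL/6J and 12706 and 12043 in BALB/c after saline. The differences of the bright genes after bleomycin are given below beside this pattern, and its part in them was not tested.

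The largest difference of a bright gene was that of Scgb1a1, the secretoglobin of airway club cells, which read 16391 and 3855 in C57BL/6J and 194 and 129 in BALB/c after bleomycin, and 3118 and 335 in C57BL/6J and 2476 and 3922 in BALB/c after saline (5.01 ± 0.85, adjusted p = 0.00155). The surfactant proteins Sftpc (4.15) and Sftpb (3.27), made by alveolar type 2 cells, and Ager, a marker of type 1 cells (3.56), differed in the same direction. Of 14 genes of type 2 cells 3 were higher and 2 lower (median 0.37), of 9 of type 1 cells 3 were higher and 1 lower (median 0.18), and of 18 of airway cells 2 were higher and 1 lower (median -0.05). Sftpc read 14576 and 710.0 in C57BL/6J and 288 and 5.79 in BALB/c after bleomycin, and 650.5 and 127 in C57BL/6J and 594 and 540.2 in BALB/c after saline, highest by far on C57BL/6J bleomycin array a. Without C57BL/6J bleomycin array a the adjusted p was 0.419. Without the same array Sftpb and Ager reached 0.259 and 0.215. H2-K2, an MHC class I gene whose probes can read related genes, read 10554 and 3681 in C57BL/6J and 250.2 and 184 in BALB/c after bleomycin, and 5232 and 2736 in C57BL/6J and 4370.4 and 3292 in BALB/c after saline (4.37 ± 0.53, adjusted p = 7.63e-05), and Rps28, a ribosomal protein, differed by 2.34 ± 0.30. Both were low on the BALB/c bleomycin arrays. Npc2, which hands cholesterol to NPC1 in lysosomes, read 9342 and 5769 in C57BL/6J and 2696 and 894 in BALB/c after bleomycin, and 6598 and 4230.0 in C57BL/6J and 4423 and 5021 in BALB/c after saline (2.16 ± 0.37, adjusted p = 0.00185). Arl2bp, a partner of the small GTPase ARL2, was the bright gene called with the same sign after bleomycin and saline, with 6954 and 7687 in C57BL/6J and 1301 and 1540.3 in BALB/c after bleomycin, and 8788 and 6603 in C57BL/6J and 1883 and 1439 in BALB/c after saline (2.30 ± 0.17 and 2.15). The calls of Scgb1a1, H2-K2, Rps28, Npc2 and Arl2bp after bleomycin held. Of their interactions, those of Scgb1a1, H2-K2 and Rps28 held.

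**Figure D5:**
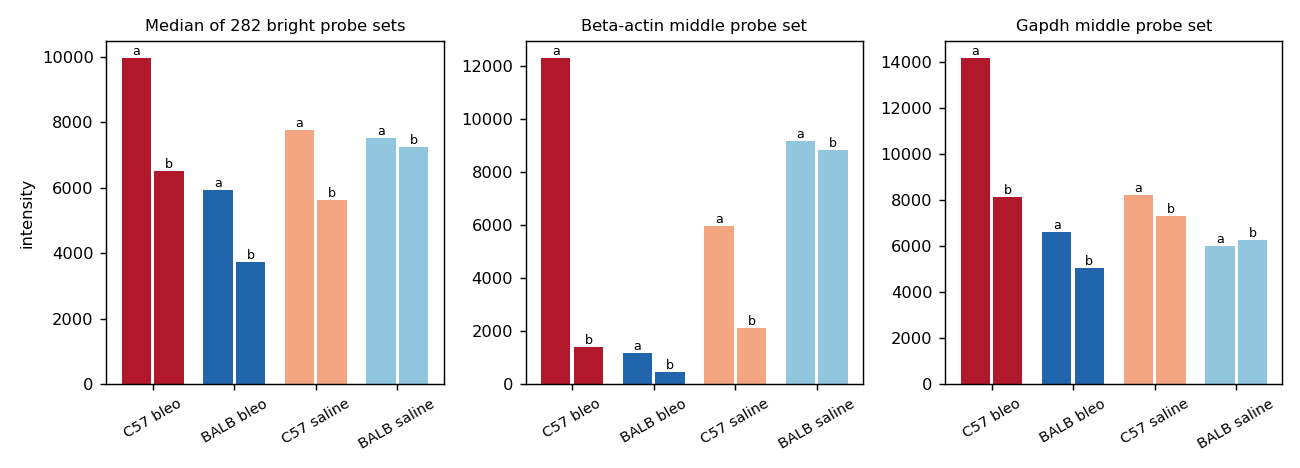
Median intensity of the 282 bright probe sets and intensity of the middle beta-actin and Gapdh probe sets on each array of 14 d (bars, a and b), with C57BL/6J left of BALB/c for each treatment. After bleomycin array a of C57BL/6J is the highest and array b of BALB/c the lowest in each panel.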

How the data were processed

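Total RNA of lung was measured on 24 arrays, 2 for each of 12 groups of strain, treatment and time, and 8 arrays of 14 d were compared here. The deposited values are intensities, 1 per probe set, that the authors had scaled, since the mean of each array between its 2nd and 98th percentile was 799.9. How the probes were summarised, not given in the sources used here, can change dim values. Control probe sets were left out, and 92 was added to the deposited intensities before taking log2. Probe sets were tested if above 225.7 (the 40th percentile of the table) on at least 2 arrays, which kept 8710. Names came from the platform annotation, which gave 10833 probe sets 1 gene name, 396 several and 1193 none. A model with 1 mean per group was fitted to all 24 arrays with limma 3.58.1 in R 4.3.3, with an intensity trend and Benjamini-Hochberg adjustment, two-sided, at 0.05. With 2 arrays a group the number of arrays limits the precision. For genes with several probe sets the one with the highest mean was used.

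A rule picked genes to name, and not all of its picks are described. It took the 10 largest differences in each direction among genes already different after saline and among those not called there. It also took up to 12 in each direction with the interaction called, and the 4 members of each gene list with the smallest p. To these came 8 fixed fibrosis genes and up to 8 bright genes. Others were chosen after their values were seen, in most cases because their calls held, and were Ackr3, Adgre1, Alad, Apoe, Arl2bp, Asah1, Blk, Cd68, Cftr, Csk, Ctsl, Eef1a1, Eng, Epcam, Fcgr2b, Gas5, Gatm, Glo1, Il3ra, Itgam, Lyz2, Mmp12, Ms4a1, Mx2, Nnt, Npc1, Npc2, Nt5e, Peg3, Pttg1, Rps28, Septin9, Serpina1e, Serpina3n, Sftpd, Slc15a2, Sox2, Sphk1, Tcf21, Tmed9 and Tpt1. The rule's picks left undescribed include the 12 most negative interactions outside the bright set. Those were of Cdh13, Dut, Get4, Lrp5, Lsm2, Six5, Tyro3, Hsph1, Itgb4, Mapt, Zfp57 and Hspa4. The comparison, the rule and the 34 gene lists, with 615 genes tested, were chosen with earlier results of these data known. The numbers in the titles mark no stated pairing between groups. Alternatives changed the normalization, offset, filter, trend, array weights, arrays fitted, replicate block and threshold. The fit was tested on simulated data.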

Additional observations from a re-analysis of the deposited data

Results flagged for a closer look

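For the genes below the strain difference after bleomycin differed from that after saline by the interaction term in limma at an adjusted p under 0.05, and the value given is the difference after bleomycin minus that after saline on the log2 scale. It was positive, and the call held without any 1 of the 8 arrays, for Arg1 (3.76), Csk (1.46), Fbln2 (1.74), Fst (2.46), H2-Bl (2.83), Peg3 (1.11), Septin9 (1.22) and Zfp94 (4.05). It was positive but the call was lost without some array for Ackr3 (1.39), C1qb (1.56), Gss (2.37), Nt5e (1.21), P4hb (3.01), Rpl37a (3.6) and Slc9a3r1 (0.88). It was negative and held for Car4 (-1.29), Cftr (-1.2) and Tcf21 (-1.75). It was negative and was lost without some array for Cd79b (-1.53), Myh6 (-1.18), Nnt (-1.09), Pttg1 (-1.48), Sox2 (-1.0) and Tor3a (-1.18). Among the bright genes it was called for Ager (5.7), Chil1 (-1.99), Ctsd (4.03), H2-K2 (4.37), Scgb1a1 (6.46) and Sftpb (5.75), beside the low bright end of BALB/c bleomycin array b described above. H2-Bl, Gss, P4hb and Zfp94 shared with the bright probe sets low readings on the BALB/c bleomycin arrays and on C57BL/6J saline array b. They did not share the whole pattern, since H2-Bl and Gss read higher on C57BL/6J bleomycin array b than on array a. The part of the shared readings in their values was not tested.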

How the results depend on the processing

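The counts of probe sets called after bleomycin, after saline and for the interaction were 1364, 1291 and 647. With array weights 159 were called after bleomycin and 150 for the interaction, and the count after saline was 1820. With the 8 arrays of 14 d alone the counts were 170, 346 and 0 in limma, with 1524 interactions at an unadjusted p under 0.05. There fewer arrays estimate the spread, and the wide bleomycin pairs carry more of it. At an adjusted p under 0.01 the counts with all arrays were 368, 469 and 95. Calls that also held with each single array left out, a criterion chosen after seeing the data, numbered 136, 247 and 94. Leaving out each array in turn gave 177 to 2010 calls after bleomycin, 427 to 1033 after saline and 136 to 1014 for the interaction, and 5 to 187 of the bright probe sets after bleomycin against 112. The count of interactions was 1014 without C57BL/6J bleomycin array b and 990 without BALB/c bleomycin array a, and fell to 136 without BALB/c saline array b, 161 without BALB/c saline array a, 170 without BALB/c bleomycin array b, 303 without C57BL/6J bleomycin array a, 382 without C57BL/6J saline array a and 325 without C57BL/6J saline array b. The cause of these changes was not tested. Across the 14 d groups the differences between array a and array b correlated over probe sets at 0.00 to 0.31, and no label pairs the letters. With the replicate block of letters a and b the counts were 1296, 1244 and 568. Genes called with the same sign after bleomycin and saline numbered 154, and 281 if an unadjusted p was taken after saline, and 24 if both calls had to hold. Genes with the interaction called and no call after saline numbered 165, and 9 if both calls had to hold. The other normalizations, offsets, filters and the fit without intensity trend kept the counts within 1.5 times. Over the named and held genes and all alternatives together, 522 of the differences after bleomycin lost their call, 23 gained one, 3274 stayed on their side of the threshold and 0 turned in sign. For the interaction 428 lost their call and 1153 stayed. Low intensities limit genes such as Ifi202b and Gbp2b, which read near the dark end of the scale in C57BL/6J.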
